A study of Mus musculus with 8 samples.

Results

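The postsynaptic density is the protein layer beneath the membrane of excitatory synapses, and 34 genes for its scaffolds, adhesion proteins, kinases and signalling enzymes were followed here in injured mouse cortex. They were picked by gene symbol for their known function, with receptors and ion channels left out. Earlier results of these data were known when they were picked. All 34 were found among the 17644 genes of the deposited table. Expression was measured by CAGE, which sequences a tag at the capped 5' end of each RNA. The mice were male, of strain C57BL/6NCrSlc and 11 weeks old, a cavity had been aspirated in their motor cortex, and the tissue lay within 1.0 mm of it. The 1-week group (4 libraries) came from brains taken 1 week after the lesion, and the no-delay group (4 libraries) from brains taken immediately after it. Both groups therefore carry the same lesion, and tissue without a lesion was not analysed here. The series title concerns progranulin and grafted human neurons, and the comparison asks how host tissue next to a 1-week-old cavity differs from that next to a fresh one. Values are CPM, tag counts that the authors scaled to one common library size. One tag stands for one capped RNA end, so gene length does not enter the CPM. How tags were assigned to genes is unknown here, and levels compared between genes depend on it. Libraries are named by the 6-base tag in their column name, and per-library values are listed in each group in a fixed order, with acagtg first, then atcacg, then cgatgt, and tgacca last.

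In an excitatory synapse, the membrane-associated guanylate kinases of the Dlg family, with PSD-95 (Dlg4) as the best known, hold receptors and adhesion molecules in place. Proteins of the Dlgap (SAPAP) family link them to the Shank proteins, which in turn bind Homer, and Homer connects the deeper layer to metabotropic glutamate receptors and to calcium stores. Calcium that enters the spine activates CaM kinase II and calcineurin, which act in opposite directions on synaptic strength, while exchange factors and GTPase-activating proteins for small GTPases shape the actin of the spine.

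The libraries held 8278855 to 13998941 reads recovered from the CPM steps, and the first principal component of log2(CPM + 1) carried 72.2% of the variance and separated the groups. The tissue held neuronal as well as glial RNA: no gene of the 9 cell type marker lists was at 0 in every library. All 14 microglia and macrophage markers rose at 1 week, with summed levels of 2577 to 3880.3 CPM at 1 week against 616 to 642 CPM without delay. Of 12 astrocyte markers, 11 rose (5225 to 5977 CPM at 1 week against 2465 to 2836 CPM without delay). The general neuron list of 13 genes had 6 lower and 7 not called (8051 to 8970.4 CPM at 1 week against 9026 to 10209 CPM without delay). Over all genes tested (described below), 13.4% were lower and 23.4% higher at 1 week. The part that the shifts of these marker lists have in the values below was not tested. In bulk tissue, fewer cells of a type and less RNA per cell cannot be told apart. The 3-base tag in the column names is GCT in every 1-week column and CAC in every no-delay column, so anything tied to that tag and the time after the lesion cannot be told apart. The labels do not say that each sample is a separate animal, so the spread that p-values here are set against may be partly technical.

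Of the 34 members, 33 had enough tags to be tested (1 CPM or more in at least 4 libraries), and 20 of these were lower at 1 week, 1 was higher and 12 were not called (limma on log2(CPM + 1), Benjamini-Hochberg adjusted p under 0.05 over all 14718 genes tested). Among all genes tested, 36.8% were called, 13.4% lower and 23.4% higher. The median log2 fold change was -0.27 over the tested members and 0.06 over all genes tested. The called members fell by 13.5% (Dlgap1) to 42.3% (Homer1) of the no-delay mean. In 14 members every 1-week library lay below every no-delay library, and in 1 (Homer3) every one lay above, where 12.0% and 22.7% of all genes tested showed these orders. The scaling of the libraries changes the balance of calls over all genes but not that over the members. Higher genes made up 63.6% of the calls without rescaling, but 53.1% after TMM scaling, 51.4% after median-of-ratios scaling and 43.4% after quantile normalization, while 20 or 21 members were lower and 1 or 2 higher in each. Quantile normalization moved the median over all genes by -0.10 (log2).

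**Figure D1:**
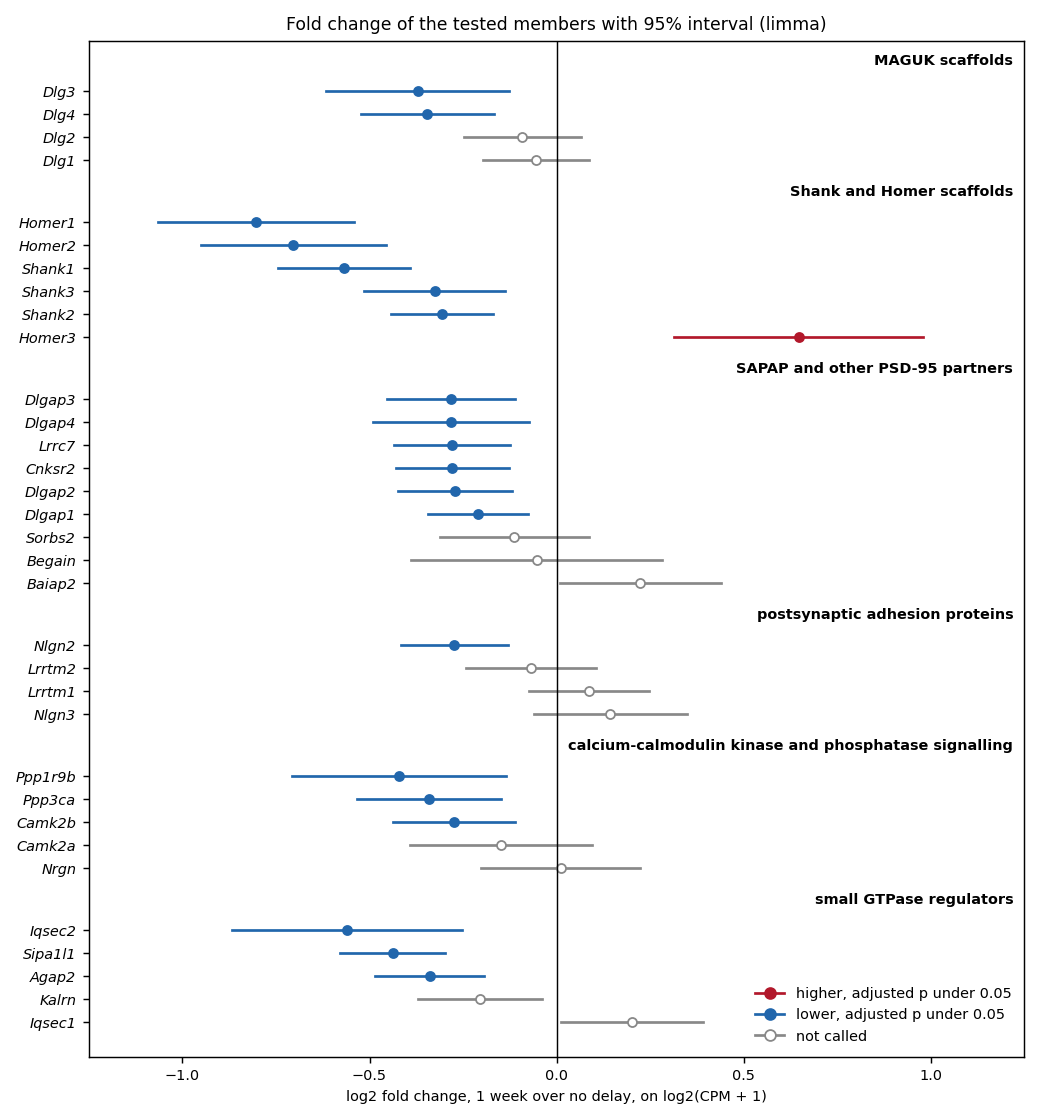
Log2 fold change (x axis, 1 week over no delay on the log2(CPM + 1) scale) of the 33 tested members (y axis, grouped by role), with points for the limma estimate and lines for its 95% interval. Blue filled points are called lower, the red filled point (Homer3) is called higher and open grey points are not called; Homer1, Homer2 and Shank1 lie farthest to the left at -0.80, -0.70 and -0.57.

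The deeper scaffold layer, Shank and Homer, had the lowest median log2 fold change of the 6 role groups (-0.45). All 6 of its members were called, 5 lower and Homer3 higher, and the summed CPM of the 6 genes was 557, 449.8, 520.0 and 598 at 1 week against 744, 781, 799 and 820.1 without delay, a difference in means of -32.4% with no overlap. Homer1 encodes both the long Homer1 proteins that cross-link Shank and metabotropic receptors and a short form, Homer1a, that neuronal activity induces. Both forms begin at the same promoter, so CAGE counts them together. Homer1 stood at 169, 119, 151 and 185 CPM in the 1-week libraries, against 239.5, 271, 265 and 306 CPM in the no-delay libraries. The groups were well apart, and the 1-week library tagged atcacg held the lowest value. Homer1 fell by 42.3% (log2 fold change -0.80, SE 0.12, adjusted p = 2.4e-04). Homer2, a second long-form Homer, stood at 30.0, 24.7, 30.0 and 38.8 CPM at 1 week against 47.1, 52.1, 53.4 and 48.5 CPM without delay and fell by 38.7% (log2 fold change -0.70, SE 0.11, adjusted p = 4.3e-04). The highest Homer2 value of the 1-week group, in the library tagged tgacca, remained below the lowest no-delay value. Homer3, the Homer best known from Purkinje cells of the cerebellum, was far less abundant and went the other way, with 4.83, 5.47, 4.79 and 6.52 CPM at 1 week and 3.59, 3.47, 3.17 and 2.19 CPM without delay (log2 fold change 0.65, SE 0.15, adjusted p = 0.00558). Its groups did not overlap, but its level is low: the no-delay libraries held 35, 38, 32 and 21 reads. With quantile normalization the Homer3 call was lost (log2 fold change 0.26, adjusted p = 0.181; range over its alternatives 0.00451 to 0.181).

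Shank proteins are the large scaffolds that join the Dlgap layer to Homer and to actin, and SHANK3 is known in people for its role in autism spectrum disorders. Shank1 stood at 184, 143, 169 and 186 CPM at 1 week against 251, 244, 253 and 259 CPM without delay and fell by 32.4% (log2 fold change -0.57, SE 0.08, adjusted p = 1.6e-04). Its no-delay values were the most even of all tested members, with an SD of 2.48% of the mean, and each 1-week value lay well below them. Shank2 fell by 19.4%, with libraries at 83.3 to 88.6 CPM at 1 week against 98.6 to 114 CPM without delay (log2 fold change -0.31, SE 0.06, adjusted p = 0.0023). Shank3 stood at 84.8, 74.6, 77.1 and 98.4 CPM at 1 week against 96.0, 107, 110.2 and 106 CPM without delay and fell by 20.1% (log2 fold change -0.33, SE 0.09, adjusted p = 0.011). The Shank3 groups overlapped in 1 library, since the 1-week library tagged tgacca lay above the lowest no-delay value.

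**Figure D2:**
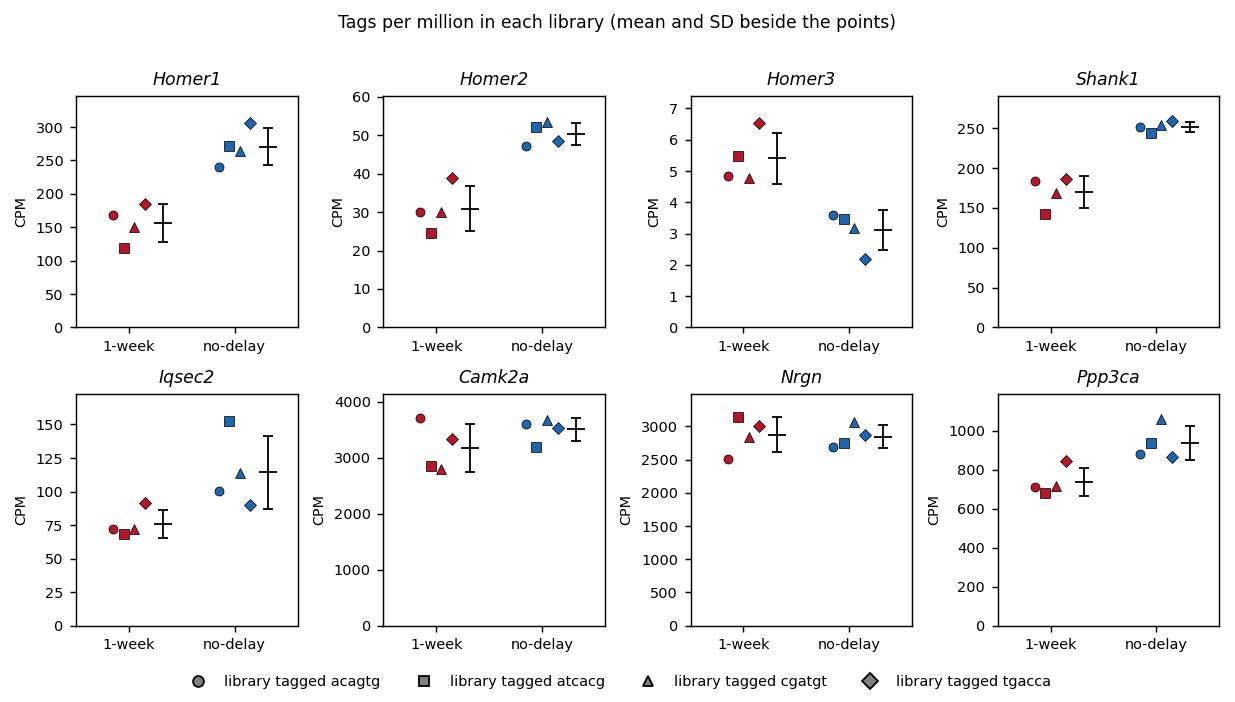
CPM (y axis, from 0) of 8 members in each library, with the 1-week group left (red) and the no-delay group right (blue); marker shape gives the 6-base tag, and the bars beside the points give the mean and SD of 4 libraries. Homer1, Homer2, Shank1 and Ppp3ca lie lower and Homer3 higher in every 1-week library, while the Camk2a, Nrgn and Iqsec2 groups overlap.

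The promoters of the 3 Homer genes are shown because the family holds the largest decrease and the only increase among the called members. Promoter sequence from RefSeq (build GRCm38.p6, 250 bases before to 50 after a gene's start) was used for 27 of the 34 members, with 49 starts in all. Any member starts on a single chromosome were set aside, while the set of all promoters kept every chromosome. Camk2a, the most abundant member, is not among the 27, nor are Dlgap2, Lrrtm2, Nlgn3, Ppp3ca, Shank1 and Shank2. Where a gene has several starts, the one farthest upstream is shown, and the tags of the deposited table are not divided between starts. Capitals mark 4 short motifs searched on both strands: TGACG (the core of a cAMP response element), GGGCGG (a GC box), CCAAT and TATAAA.
Homer1 (chr13:93303507-93303806, plus strand): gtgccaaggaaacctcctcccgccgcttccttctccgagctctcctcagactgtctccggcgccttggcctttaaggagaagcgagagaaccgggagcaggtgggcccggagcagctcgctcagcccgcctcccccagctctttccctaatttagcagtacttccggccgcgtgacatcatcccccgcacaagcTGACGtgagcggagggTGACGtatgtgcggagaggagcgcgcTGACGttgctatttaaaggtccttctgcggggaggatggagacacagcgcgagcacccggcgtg
Homer2 (chr7:81706876-81707175, minus strand): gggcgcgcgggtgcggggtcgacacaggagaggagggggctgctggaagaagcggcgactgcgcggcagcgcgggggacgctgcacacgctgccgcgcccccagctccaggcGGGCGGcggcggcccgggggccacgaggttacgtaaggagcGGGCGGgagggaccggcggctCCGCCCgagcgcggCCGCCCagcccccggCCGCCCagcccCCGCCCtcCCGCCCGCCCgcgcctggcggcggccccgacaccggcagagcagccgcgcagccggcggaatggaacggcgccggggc
Homer3 (chr8:70282749-70283048, plus strand): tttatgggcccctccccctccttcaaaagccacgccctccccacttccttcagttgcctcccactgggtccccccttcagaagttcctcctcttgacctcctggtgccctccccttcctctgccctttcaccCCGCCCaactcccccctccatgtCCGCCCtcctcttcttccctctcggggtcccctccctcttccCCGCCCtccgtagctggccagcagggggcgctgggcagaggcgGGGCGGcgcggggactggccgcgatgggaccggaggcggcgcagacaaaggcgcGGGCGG
The Homer1 promoter shown holds TGACG at 3 places, whose first bases lie 56, 40 and 14 bases before the start. Of all 32851 promoters in the table, 20.8% hold TGACG at least once and 1.04% hold it 3 times or more. The Homer2 promoter shown holds no TGACG but 8 copies of GGGCGG, some of which overlap. The Homer3 promoter holds 5, where 35.7% of all promoters hold at least 1. Homer1 and Homer2 have 2 starts each, and the starts not shown lack these motifs. There Homer1 has no TGACG (44.7% G and C), and Homer2 has no GGGCGG but 1 TATAAA (52.3% G and C). The bases G and C make up 63% of the Homer1, 82.3% of the Homer2 and 69.7% of the Homer3 sequence shown. These matches describe the letters and were not tested as binding sites.

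Among the Dlg scaffolds, Dlg3 and Dlg4 were lower and Dlg1 and Dlg2 were not called. Dlg4 (PSD-95), the central scaffold of the layer, stood at 339, 270.2, 262 and 290.5 CPM at 1 week against 349.8, 375, 389 and 357 CPM without delay. Every 1-week library lay below every no-delay library, by a small margin in the library tagged acagtg, and the level fell by 21.0% (log2 fold change -0.35, SE 0.08, adjusted p = 0.00558). Dlg3 (SAP102) stood at 65.2, 54.5, 67.9 and 69.0 CPM at 1 week and 79.8, 97.4, 90.9 and 67.0 CPM without delay (log2 fold change -0.37, SE 0.11, adjusted p = 0.021). Its groups overlapped at the no-delay library tagged tgacca. The Dlg3 call was lost without the 1-week library tagged atcacg (adjusted p = 0.0675) and without the no-delay libraries tagged atcacg (adjusted p = 0.0672) or cgatgt (adjusted p = 0.0627), within a range of 7.2e-04 to 0.0675 over the alternatives. Dlg2 (PSD-93) stood at 390.3, 334, 359 and 325 CPM at 1 week and 383, 373, 392 and 349 CPM without delay, with a log2 fold change of -0.09 (adjusted p = 0.346) and a 95% interval of -0.25 to 0.06. Dlg1 (SAP97), which is also found outside neurons, averaged 96.6 ± 2.33 CPM in the 1-week group and 101 ± 7.28 CPM in the no-delay group (SD, n = 4 each), with a log2 fold change of -0.05 (adjusted p = 0.545) and a 95% interval of -0.20 to 0.09.

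All 4 Dlgap genes, the bridge between Dlg4 and Shank, were lower. Dlgap1, the most abundant of them, fell by 13.5% (357 to 403 CPM at 1 week against 436 to 464 CPM without delay; log2 fold change -0.21, SE 0.06, adjusted p = 0.0183). Dlgap2 fell by 17.3% (145 to 167 CPM at 1 week against 171 to 199 CPM without delay; log2 fold change -0.27, SE 0.07, adjusted p = 0.00925). Dlgap3 stood at 169.7, 155, 168 and 194 CPM at 1 week and 202, 190.4, 219.9 and 223 CPM without delay, with 1 library of each group in the overlap, and fell by 17.7% (log2 fold change -0.28, SE 0.08, adjusted p = 0.0138). Dlgap4 stood at 99.8, 85.9, 86.3 and 106 CPM at 1 week and 98.8, 129, 124 and 109.5 CPM without delay, also with an overlap (log2 fold change -0.28, SE 0.10, adjusted p = 0.0366). The Dlgap4 call was lost in 6 of 19 alternatives, more than any other of the 21: without the atcacg or cgatgt library of either group (adjusted p from 0.0984 to 0.11), with quantile normalization (adjusted p = 0.0503) and with the 6-base tag as a block (adjusted p = 0.0672). Its adjusted p ranged over 0.00475 to 0.11 in all alternatives, that of Dlgap1 over 3.7e-05 to 0.0674. The Dlgap1 call was lost without the 1-week library tagged atcacg (adjusted p = 0.0653), as it was after quantile normalization (adjusted p = 0.0674).

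Other partners of PSD-95 were divided. Lrrc7 (densin-180), which binds CaM kinase II, fell by 17.7% (195 to 231 CPM at 1 week against 249 to 286 CPM without delay; log2 fold change -0.28, SE 0.07, adjusted p = 0.00842). Cnksr2 (CNK2), a scaffold of Ras signalling, fell by 17.5% (249 to 292 CPM at 1 week against 315 to 347 CPM without delay; log2 fold change -0.28, SE 0.07, adjusted p = 0.00752). In both genes every 1-week library lay below every no-delay library. Baiap2 (IRSp53), which bends membranes and recruits actin regulators, stood at 278, 279, 269 and 236 CPM at 1 week and 240.2, 245, 248 and 182 CPM without delay, a log2 fold change of 0.22 (adjusted p = 0.0964) in the direction opposite to most members. The no-delay library tagged tgacca was far below the other 3. Baiap2 was called higher with quantile normalization (adjusted p = 0.0412), with the 6-base tag as a block (adjusted p = 0.0204) and without the 1-week library tagged tgacca (adjusted p = 0.0463), with a range of 0.0204 to 0.239 over the alternatives. Sorbs2 (ArgBP2), an adaptor that links kinases to actin, averaged 137 ± 15.0 CPM in the 1-week group and 148 ± 15.7 CPM in the no-delay group (SD, n = 4 each), with a log2 fold change of -0.11 (adjusted p = 0.362). Begain, named for its binding to PSD-95, averaged 4.45 ± 1.19 CPM in the 1-week group and 4.56 ± 0.244 CPM in the no-delay group (SD, n = 4 each), with a log2 fold change of -0.05 (adjusted p = 0.812), and was called lower with quantile normalization alone (log2 fold change -0.43, adjusted p = 0.0473; range over the alternatives 0.0473 to 0.947).

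Of the 5 adhesion proteins that reach across the cleft to presynaptic neurexins, only Nlgn2 was called. Nlgn2, the neuroligin of inhibitory synapses, stood at 179, 158, 166 and 180.0 CPM at 1 week against 219.8, 194, 209 and 202 CPM without delay, with no overlap, and fell by 17.3% (log2 fold change -0.27, SE 0.07, adjusted p = 0.00614). Nlgn3, found at both excitatory and inhibitory synapses and also made by glial cells, stood at 66.0, 74.1, 74.8 and 59.4 CPM at 1 week and 68.5, 64.1, 61.8 and 53.5 CPM without delay, a log2 fold change of 0.14 (adjusted p = 0.256). The leucine-rich repeat protein gene Lrrtm1 averaged 40.6 ± 1.19 CPM in the 1-week group and 38.2 ± 2.86 CPM in the no-delay group (SD, n = 4 each), and Lrrtm2 averaged 54.3 ± 3.17 CPM in the 1-week group and 57.1 ± 5.33 CPM in the no-delay group. Their log2 fold changes were 0.09 (adjusted p = 0.385) and -0.07 (adjusted p = 0.535), with 95% intervals of -0.07 to 0.25 for Lrrtm1 and -0.24 to 0.11 for Lrrtm2. Nlgn1, the neuroligin of excitatory synapses, was the one member not tested: it held 1, 5, 8 and 8 reads in the 1-week libraries and 5, 7, 14 and 6 in the no-delay libraries. Its low level cannot be checked without the rules of tag assignment, and the same holds for Begain.

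The most abundant members were in the calcium and calmodulin branch, and the leading pair was not called. Camk2a, the alpha subunit of CaM kinase II and a main protein of the postsynaptic density of forebrain, stood at 3719, 2854, 2802 and 3340.2 CPM at 1 week and 3603, 3202, 3683 and 3541 CPM without delay. The 1-week library tagged acagtg exceeded every no-delay library, and those tagged atcacg and cgatgt lay below every no-delay library. The 1-week library tagged tgacca lay within the no-delay range (log2 fold change of the groups -0.15, SE 0.11, adjusted p = 0.322, 95% interval of -0.39 to 0.09). Camk2a was called lower with quantile normalization (log2 fold change -0.40, adjusted p = 0.0258; range over the alternatives 0.0258 to 0.606). Nrgn, neurogranin, which holds calmodulin in the spine until calcium rises, stood at 2516, 3138, 2845 and 2998 CPM at 1 week and 2685, 2755, 3069.7 and 2874 CPM without delay, with a log2 fold change of 0.01 (adjusted p = 0.94) and a 95% interval of -0.20 to 0.22. Camk2a and Nrgn together made up 53.0% of the summed CPM of all 34 members at 1 week and 49.5% without delay. The pair weighs on the summed CPM of all members: its 1-week mean differed by -11.0% from the no-delay mean, while the other 32 genes alone summed to 5366 ± 259 CPM at 1 week and 6481 ± 227 CPM without delay (SD, n = 4 each), a difference of -17.2%.

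The other signalling members were lower. Camk2b, the beta subunit, which also binds actin, stood at 307, 339, 345 and 384 CPM at 1 week against 447, 394, 413 and 406 CPM without delay and fell by 17.2% (log2 fold change -0.27, SE 0.08, adjusted p = 0.0128). Ppp3ca, the catalytic subunit of the phosphatase calcineurin, stood at 714, 684, 716 and 846 CPM at 1 week against 884, 936, 1063 and 867 CPM without delay and fell by 21.1% (log2 fold change -0.34, SE 0.09, adjusted p = 0.00971). In both genes the highest 1-week library was the one tagged tgacca, just below the lowest no-delay library. Ppp1r9b (spinophilin), which brings protein phosphatase 1 to spines, stood at 82.5, 64.4, 78.9 and 101 CPM at 1 week and 92.1, 126, 121 and 98.2 CPM without delay, with overlapping groups (log2 fold change -0.42, SE 0.13, adjusted p = 0.025). Its call was lost without the atcacg or cgatgt library of either group (adjusted p from 0.056 to 0.0766; range over all alternatives 0.00224 to 0.0766).

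The regulators of small GTPases held the strongest decrease outside the Homer and Shank genes. Iqsec2, an exchange factor for Arf6 bound to PSD-95, stood at 72.3, 68.5, 72.2 and 91.5 CPM at 1 week and 100.3, 153, 114 and 90.1 CPM without delay. The no-delay library tagged atcacg was far above the rest, the 1-week library tagged tgacca just above the lowest no-delay value, and the level fell by 33.4% (log2 fold change -0.56, SE 0.14, adjusted p = 0.00822). Without the no-delay library tagged atcacg the log2 fold change was -0.41 (adjusted p = 0.0148; range over the alternatives 8.4e-05 to 0.0273). Iqsec1, its relative with the same activity, stood at 84.9, 93.4, 90.7 and 97.3 CPM at 1 week and 90.6, 82.2, 79.8 and 67.0 CPM without delay, a log2 fold change of 0.20 (adjusted p = 0.0923) in the other direction. Iqsec1 was called higher when the acagtg library of the no-delay group was left out (adjusted p = 0.0329) or quantile normalization was used (adjusted p = 0.0479), in a range of 0.0329 to 0.262. Sipa1l1 (SPAR), a Rap GTPase-activating protein that enlarges spines, fell by 26.4% (148 to 162 CPM at 1 week against 196 to 224 CPM without delay; log2 fold change -0.44, SE 0.06, adjusted p = 2.3e-04). Agap2 (PIKE), an Arf GTPase-activating protein that also binds PI3 kinase, fell by 20.9% (172 to 207 CPM at 1 week against 226 to 242 CPM without delay; log2 fold change -0.34, SE 0.07, adjusted p = 0.00178). Kalrn (kalirin), a guanine nucleotide exchange factor of spines, stood at 331, 321, 340.4 and 312 CPM at 1 week and 404, 381, 401 and 324 CPM without delay. It just missed the threshold with CPM as deposited (log2 fold change -0.21, SE 0.08, adjusted p = 0.0519) and was called lower in 7 of 19 alternatives, among them TMM scaling (adjusted p = 0.00982), edgeR (adjusted p = 0.0123) and the omission of the tgacca library of the no-delay group (adjusted p = 0.00577). Over all alternatives the adjusted p of Kalrn was 6.7e-04 to 0.134.

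The promoters of Iqsec1 and Iqsec2, whose ratio had groups without overlap, are shown with the same motifs in capitals.
Iqsec1 (chr6:90810074-90810373, minus strand): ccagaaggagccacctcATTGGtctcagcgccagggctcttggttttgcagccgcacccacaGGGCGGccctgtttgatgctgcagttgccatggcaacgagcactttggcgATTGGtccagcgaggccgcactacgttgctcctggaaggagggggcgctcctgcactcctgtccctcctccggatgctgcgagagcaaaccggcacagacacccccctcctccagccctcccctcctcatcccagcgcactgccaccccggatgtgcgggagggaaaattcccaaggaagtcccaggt
Iqsec2 (chrX:152144018-152144317, plus strand): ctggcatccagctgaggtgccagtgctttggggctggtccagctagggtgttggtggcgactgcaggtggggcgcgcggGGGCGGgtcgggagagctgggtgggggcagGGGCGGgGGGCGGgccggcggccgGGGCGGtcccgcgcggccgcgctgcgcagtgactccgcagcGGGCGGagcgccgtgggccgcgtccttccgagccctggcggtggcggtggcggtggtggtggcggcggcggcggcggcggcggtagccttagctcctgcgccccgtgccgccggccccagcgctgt
The Iqsec1 promoter shown holds 2 copies of CCAAT and 1 of GGGCGG. The Iqsec2 promoter shown holds 5 copies of GGGCGG and no CCAAT, where 37.4% of all promoters hold CCAAT. Each gene has 2 starts, and the contrast is not seen at the starts not shown. There Iqsec1 has 2 copies of CCAAT and 2 of GGGCGG, and Iqsec2 has 2 of CCAAT and no GGGCGG. Over the 49 promoters of members, GGGCGG occurred in 26 (53.1%, against 35.7% of all promoters), CCAAT in 17 (34.7%, against 37.4%), TGACG in 7 (14.3%, against 20.8%) and TATAAA in 5 (10.2%, against 13.6%). The 49 are starts of 27 genes, and some windows overlap, so the same bases can count more than once. Begain and Cnksr2 have such windows, and all of theirs hold GGGCGG. The full cAMP response element TGACGTCA, which contains TGACG, was in 0 of the 49 (1.79% of all promoters). Their median GC content was 59.3%, against 52.7% over all promoters, with a median of 15 CpG dinucleotides in 300 bases, against 7.

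The ratio of a pair of members within a library does not depend on how that library is scaled, and 16 such ratios were computed. All but Camk2a to Ppp3ca were within a family. The ratios listed are of the CPM as deposited. The log2 differences and exact p were computed on CPM + 1, so they depend somewhat on scaling. They also differ from the listed ratios, most for the low Homer3. In 6 of them the groups did not overlap. The ratio of Homer1 to Homer3 was 35.0, 21.7, 31.5 and 28.4 at 1 week and 66.7, 78.1, 83.6 and 139.8 without delay (log2 difference -1.45, exact p = 0.0286, adjusted p = 0.0762), and that of Homer2 to Homer3 was 6.20, 4.51, 6.26 and 5.94 at 1 week and 13.1, 15.0, 16.8 and 22.2 without delay (log2 difference -1.35, exact p = 0.0286, adjusted p = 0.0762). Homer1 and Homer2 tags outnumbered Homer3 tags by less in every 1-week library than in any no-delay library. The Iqsec1 to Iqsec2 ratio was 1.17, 1.36, 1.26 and 1.06 at 1 week and 0.903, 0.538, 0.700 and 0.743 without delay (log2 difference 0.76, exact p = 0.0286, adjusted p = 0.0762), above 1 in each 1-week library and below 1 in each no-delay library. The Nlgn3 to Nlgn2 ratio was 0.369, 0.470, 0.449 and 0.330 at 1 week and 0.312, 0.330, 0.295 and 0.264 without delay (log2 difference 0.42, exact p = 0.0286, adjusted p = 0.0762). The margin between the groups was small for Nlgn3 to Nlgn2, where the 1-week library tagged tgacca exceeded the no-delay library tagged atcacg by less than the digits shown. Dlg2 to Dlg4 was 1.15, 1.24, 1.37 and 1.12 at 1 week and 1.10, 0.995, 1.01 and 0.978 without delay (log2 difference 0.25, exact p = 0.0286, adjusted p = 0.0762), and Shank1 to Shank3 was 2.17, 1.91, 2.19 and 1.89 at 1 week and 2.62, 2.28, 2.30 and 2.44 without delay (log2 difference -0.24, exact p = 0.0286, adjusted p = 0.0762). With 4 libraries against 4 there are 70 arrangements, so the exact permutation p (2-sided) cannot go below 0.0286. After Benjamini-Hochberg adjustment over the 16 ratios none of the 6 passed 0.05 while 6 had an unadjusted p under 0.05. All 6 stood at the lowest possible p. Their adjusted p of 0.0762 therefore follows from how many ratios reached it, and says nothing about the size of each difference.

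In the remaining 10 ratios the groups overlapped. The 3 ratios to Dlgap4 within the Dlgap family differed by 0.00 to 0.07 on the log2 scale between the groups, with exact p from 0.543 to 1. The Shank2 to Shank3 ratio averaged 1.03 ± 0.135 at 1 week and 1.01 ± 0.0785 without delay (SD, n = 4 each; exact p = 0.857). The Camk2a to Camk2b ratio was 12.1, 8.41, 8.12 and 8.70 at 1 week and 8.07, 8.12, 8.91 and 8.72 without delay (exact p = 0.543). The 1-week library tagged acagtg stands alone there, and the other 1-week libraries lie within the no-delay range or next to it.

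**Figure D3:**
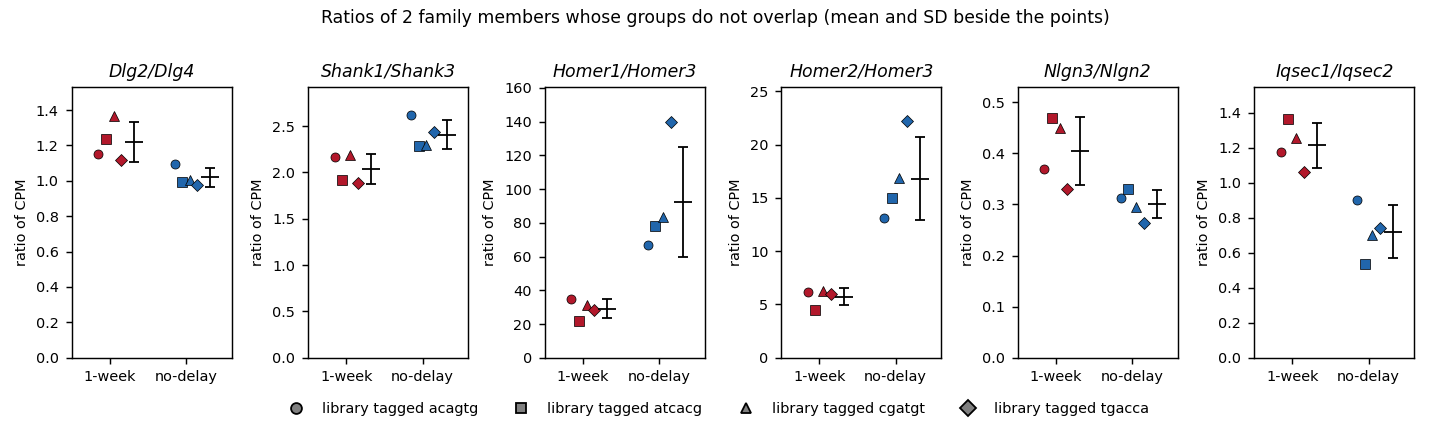
Ratio of the CPM of 2 family members (y axis, from 0) in each library, for the 6 pairs whose groups do not overlap, with the 1-week group left (red) and the no-delay group right (blue) and the mean and SD of 4 libraries beside the points. The Homer1 to Homer3 ratio lies between 21.7 and 35.0 at 1 week and between 66.7 and 139.8 without delay.

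Within the 1-week group most members called lower had the same libraries at their ends. Of the 20 members called lower, 18 had their lowest 1-week value in the library tagged atcacg, and 13 had their highest in the library tagged tgacca. Of the 12 members not called, 2 had their lowest 1-week value in the library tagged atcacg and 6 in that tagged tgacca, and over all 33 tested members 20 were lowest in atcacg. In the no-delay group the 20 members called lower had their lowest values spread over the libraries, with 7, 5, 2 and 6 in the order given above. Of the 12 members not called, 8 had their lowest no-delay value in the library tagged tgacca, as had 15 of all 33. The median of the 20 members called lower, as log2 of the CPM over the no-delay mean of each gene, was -0.32, -0.45, -0.38 and -0.23 in the 1-week libraries. Of the 6 marker lists of cells other than neurons, 3 took the opposite order at its ends. Summed microglia and macrophage markers were 2799.9, 3880.3, 2864 and 2577 CPM in the 1-week libraries, highest in the library tagged atcacg and lowest in that tagged tgacca. Fibroblast and meningeal markers were 178, 336, 205 and 165 CPM, with the same 2 libraries at the ends, and oligodendrocyte precursor markers, also with these ends, were 373, 422, 369.5 and 339.9 CPM. The other 3 lists differed: astrocyte markers were 5225, 5909, 5977 and 5668 CPM, oligodendrocyte markers 4081, 4073, 3669 and 2426 CPM and vessel markers 362, 446, 384 and 402 CPM. Among neuronal lists, the general list (8489.7, 8872, 8970.4 and 8051 CPM) and the inhibitory list (1093, 998, 1045 and 961 CPM) were lowest in the library tagged tgacca, and the excitatory list (1252, 1129, 1167 and 1159.5 CPM) was lowest in that tagged atcacg. With 4 libraries these orders were not tested, nor was their part in the result. Without the 1-week library tagged atcacg, 16 members were called lower and 1 higher.

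**Figure D4:**
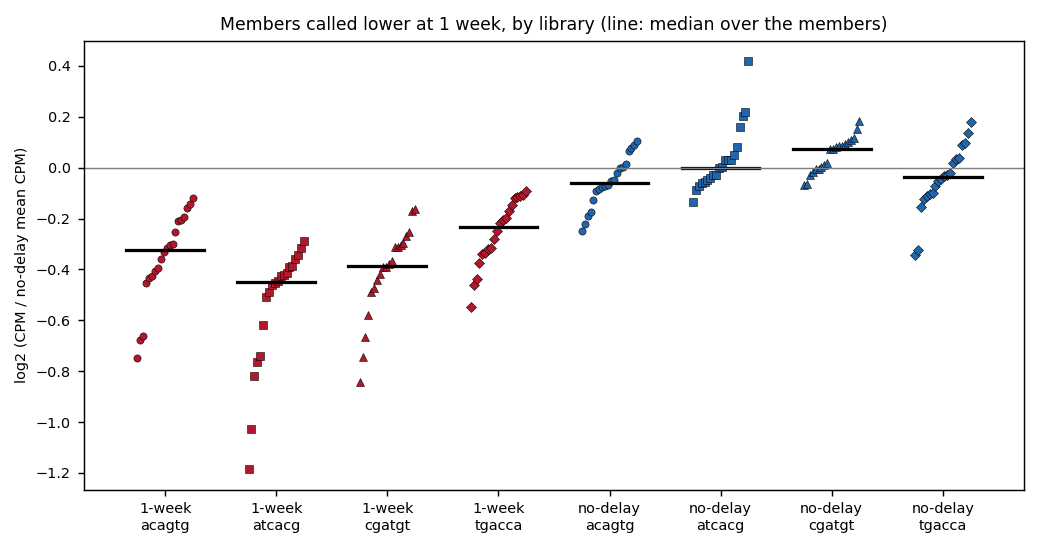
Log2 of CPM over the no-delay mean (y axis) for the 20 members called lower, 1 point per member, in each of the 8 libraries (x axis, 1-week libraries left in red, no-delay libraries right in blue); the black line is the median over the members. The medians of the 1-week libraries lie between -0.45 (atcacg) and -0.23 (tgacca), those of the no-delay libraries between -0.06 and 0.07.

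Neuronal markers gauge how much neuronal RNA the samples held. The general neuron list had a median log2 fold change of -0.20, with 6 of 13 genes lower and none higher. The excitatory list had 2 of 10 genes lower and 2 higher, with a median of -0.12, and the inhibitory list had 2 of 10 lower and 1 higher, with a median of -0.08. Over all genes tested, 13.4% were lower and 23.4% higher, and the excitatory and inhibitory counts are not far from these shares. Beside the medians of the neuron lists stand -0.27 for the members, -0.45 for the Shank and Homer genes and 0.01 for the adhesion proteins. The excitatory list summed to 1129 to 1252 CPM at 1 week against 1188 to 1318 CPM without delay. The differences between these lists were not tested. Among the remaining marker lists, 6 of 10 oligodendrocyte genes, 5 of 7 genes of their precursors, 7 of 9 vessel genes and all 6 fibroblast genes were higher and none was lower.

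**Figure D5:**
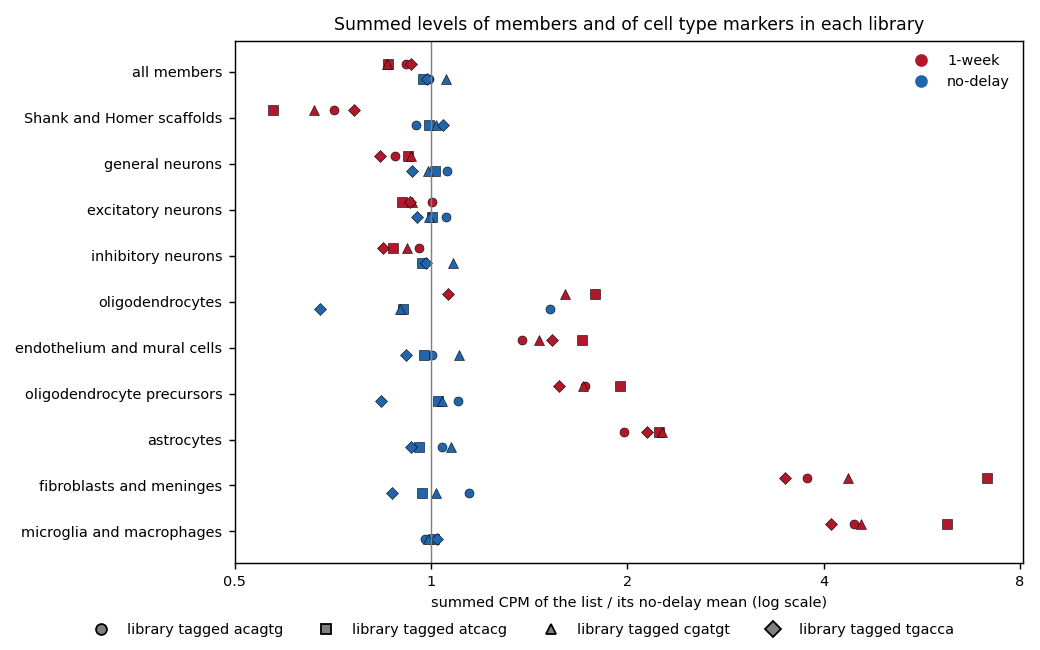
Summed CPM of the members, of the Shank and Homer genes and of 9 cell type marker lists in each library (x axis, log scale, relative to the no-delay mean of the list), with the 1-week libraries (red) above the no-delay libraries (blue) in each row. The Shank and Homer sum averages 0.676 of its no-delay mean at 1 week, the general neuron sum 0.891 and the microglia and macrophage sum 4.82.

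Genes of the same structures outside the 34 members were also examined. The 127 other postsynaptic genes were chosen by function, also with earlier results of these data known. Of these, 125 were in the table and 124 were tested. At 1 week 56 were lower, 4 were higher and 64 were not called, with a median log2 fold change of -0.20. Over all genes tested, 13.4% were lower and 23.4% higher, with a median log2 fold change of 0.06. Without the 1-week library tagged atcacg, 37 of the other postsynaptic genes were called lower. By group, 9 of 25 scaffolds and adaptors, 18 of 35 genes of calcium and kinase signalling, 12 of 30 adhesion proteins and 17 of 34 regulators of spine actin and GTPases were lower. The largest decrease was that of Dynll2, a dynein light chain that binds the Dlgap layer, with 539, 472, 529 and 644 CPM at 1 week against 1069, 1639, 1571 and 947 CPM without delay (log2 fold change -1.23, SE 0.16, adjusted p = 9.9e-05). In Dynll2 the no-delay libraries were uneven, but each exceeded every 1-week library. Next came Prkar2b, a regulatory subunit of protein kinase A anchored at synapses, with 35.0, 24.2, 31.1 and 39.0 CPM at 1 week against 61.8, 84.2, 86.8 and 60.7 CPM without delay (log2 fold change -1.16, SE 0.15, adjusted p = 8.2e-05). Dapk1, a calmodulin-dependent kinase linked to cell death, averaged 99.6 ± 18.5 CPM in the 1-week group and 171 ± 6.47 CPM in the no-delay group (SD, n = 4 each; log2 fold change -0.79, adjusted p = 1.1e-04). Cdk5r1, which encodes the p35 activator of Cdk5, had a log2 fold change of -0.72 (adjusted p = 3.2e-04).

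Among adhesion proteins, Clstn1 (calsyntenin-1) averaged 481 ± 53.7 CPM in the 1-week group and 809 ± 68.5 CPM in the no-delay group (SD, n = 4 each; log2 fold change -0.75, adjusted p = 4.1e-05). Lrfn1 (SALM2), which binds PSD-95, and Bai1 (now Adgrb1), a receptor that also recognises dying cells, had log2 fold changes of -0.66 (adjusted p = 0.00244) and -0.49 (adjusted p = 0.00258). Scaffolds of smaller change were Magi3, at -0.43 (adjusted p = 0.00818), and Grip1, which binds AMPA receptors, at -0.36 (adjusted p = 0.0213). The Grip1 call was lost without the 1-week library tagged atcacg (adjusted p = 0.0638) and without the no-delay libraries tagged acagtg (adjusted p = 0.0519) or cgatgt (adjusted p = 0.0564), in a range of 0.00181 to 0.0638 over the alternatives. Of the actin regulators, Wasf1 (WAVE1) fell by 32.3% (log2 fold change -0.57, adjusted p = 5.5e-04), and Arhgap44, a GTPase-activating protein, had -0.53 (adjusted p = 0.00528) with overlapping groups. Cyfip1, a partner of WAVE1 in the same complex, rose, with 79.6, 92.2, 83.8 and 75.9 CPM at 1 week against 58.0, 54.7, 57.9 and 52.7 CPM without delay (log2 fold change 0.56, SE 0.07, adjusted p = 8.4e-05). The other 3 genes called higher, named after their values were seen, were the tyrosine kinase gene Fyn at 0.28 (adjusted p = 0.0244), Nos1, the neuronal nitric oxide synthase, at 0.45 (adjusted p = 0.0137), and the adhesion gene Slitrk2 at 0.28 (adjusted p = 0.0331).

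Calls were made among abundant and less abundant members alike: 11 of the 16 tested members above the median level of 183 CPM and 9 of the 17 at or below it were called lower, with median log2 fold changes of -0.28 and -0.27. Spread among libraries was similar in the groups, with a median SD over the mean of 9.27% at 1 week and 7.21% without delay over the 33 tested members. No member shared identical reads with another gene. Strand-aware counting is not stated, and 5 members (Dlg2, Dlgap4, Baiap2, Nlgn2 and Sipa1l1) have a gene start on the opposite strand within 1000 bases in GENCODE M21. The neighbours of 3 of them had levels of their own. Mean CPM at 1 week and without delay was 33.0 and 30.1 for Tmem126b (beside Dlg2) and 1.4 and 2.8 for Gm14169 (beside Dlgap4). For Gm11767 (beside Baiap2) it was 23.9 and 21.25. Whether tags of a neighbour were counted with any of the 5 members is not known.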

How the data were processed

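Per the labels, the deposited table holds CPM per gene for 8 CAGE libraries; the submitters' processing notes name BWA 0.5.9 and mm9. How tags were assigned to genes, and whether by strand, is not given in the sources used here. All CPM values are whole multiples, within 0.1 reads, of what 1 read is worth (100% of values), which gave depths of 8278855 to 13998941 reads; 3 reads are 0.214 to 0.362 CPM.

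Genes with at least 1 CPM in at least 4 libraries were compared on log2(CPM + 1) with limma 3.58.1 (trend, R 4.3.3) in the 4 1-week against the 4 no-delay libraries; a call is a Benjamini-Hochberg adjusted p under 0.05 over all genes tested. Fold changes on this scale understate the change of low genes. On the recovered reads, edgeR 4.0.16 called 2923 genes higher and 2567 lower; DESeq2 1.42.0 was also run. The scripts were tested on simulated data. Per-library values are given for the 3 members with the most tags, for called members past 0.5 on the log2 scale, for called members with overlapping groups and for members of separated ratios; outside the members, the 3 largest called changes of each list are named. The members and lists were chosen with earlier results of these data known. Symbols were matched through older names where needed (such as Lzts3, Adgrb1, Adgrb2, Adgrb3 and Map2); Sipa1l2 and Sipa1l3 were not matched. Promoters were matched to RefSeq (GRCm38.p6) by symbol; no coordinates of the deposited build were used. The 19 alternatives changed the pseudocount, filter, scaling, tool, weights or tag block, or left out 1 library.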

Additional observations from a re-analysis of the deposited data

Results flagged for a closer look

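In 6 of the 100 groups of 4 libraries examined (each member and each ratio, in each group), 1 library lay far from the other 3 by Dixon's criterion at 95%; chance alone flags about 1 in 20. For Dlgap1 the no-delay library tagged acagtg was high, at 464 CPM against 436 to 438 CPM in the other 3 no-delay libraries. For Baiap2 the no-delay library tagged tgacca was low, at 182 CPM against 240.2 to 248 CPM. For Sorbs2 the 1-week library tagged acagtg was high, at 159 CPM against 128 to 132 CPM. For Iqsec2 the 1-week library tagged tgacca was high, at 91.5 CPM against 68.5 to 72.3 CPM. For Nlgn1 the no-delay library tagged cgatgt was high, at 1.39 CPM against 0.51 to 0.64 CPM, at levels of a few reads. The Camk2a to Camk2b ratio was high in the 1-week library tagged acagtg, at 12.1 against 8.12 to 8.70. The cause of these single values was not tested.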

How the results depend on the processing

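Of the 20 members called lower, 16 were called in all 19 alternatives. Dlg3, Dlgap1, Dlgap4 and Ppp1r9b were each lost in some, and no call was reversed. Among members not called, the log2 fold change took the other sign for Nrgn in 9 of the alternatives (-0.07 to 0.07) and for Begain in 1 (-0.43 to 0.05). Leaving out 1 library gave 16 to 21 members lower and 1 to 2 higher. It gave 37 to 52 of the other postsynaptic genes lower and 2 to 6 higher, and 6 to 7 ratios without overlap. Both low ends, 16 and 37, came without the 1-week library tagged atcacg. Over all genes, it gave 2841 to 3448 higher and 1429 to 2142 lower, and quantile normalization gave 3211 lower. Members called higher numbered 0 with a filter of 5 CPM, at which Homer3 was not tested, 2 with quantile normalization and 2 with the 6-base tag as a block. Other postsynaptic genes called higher numbered 2 with median-of-ratios scaling and 7 with library weights. The cause of these shifts was not tested. No paired analysis was possible because the column names carry no replicate number. Deviations of libraries that share a 6-base tag correlated at -0.034 to 0.181, so the tag block (20 members lower) is only an alternative. Low tag counts limit Nlgn1, Homer3 and Begain.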
